A study of Homo sapiens with 9 samples.

Results

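The 10 genes described here have roles in the identity of heart muscle, its calcium handling or its response to stress, and several are also expressed outside the heart. They are NPPB and EDN1, which encode secreted stress peptides, ATP2A2, the calcium pump of the internal store, GJA1, the gap junction protein connexin 43, DES, the muscle intermediate filament desmin, and the transcription regulators GATA4, GATA6, MEF2A, MEF2C and MYOCD. They were taken by gene name from a table of 60671 rows, and each name matched a row. The RNA came from AC16, a human line derived from ventricular cells of the heart fused with fibroblasts. There were 3 groups of 3 libraries each: AC16 cells in high glucose to which chrysin (a flavonoid found in plants) was added, AC16 cells in high glucose alone, and AC16 cells in low glucose. The groups carry no genetic change in the labels, all come from this single line, and the sources used here do not give the glucose concentrations, the chrysin dose or the treatment time. Diabetic cardiomyopathy and ferroptosis are named in the series title. The comparisons ask how these cells differ in high glucose, and in high glucose combined with chrysin. The treatment labels give no order for the combination and name no vehicle control for chrysin.

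In a working heart cell, calcium enters at each beat, triggers release from the sarcoplasmic reticulum and is pumped back by the ATP2A2 product SERCA2, while connexin 43 channels pass the current to the next cell and desmin ties the contractile units together. GATA4, GATA6 and the MEF2 factors bind DNA at cardiac genes, and myocardin (MYOCD) works as a coactivator of serum response factor (SRF) at muscle genes. Strained heart muscle secretes the B-type natriuretic peptide made from NPPB, and endothelin-1, made from EDN1, constricts vessels and promotes hypertrophy.

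The libraries held 18171842 to 23024300 reads recovered from the FPKM values (fragments scaled to transcript length and library size). Genes of the mitochondrial genome held 3.80% to 3.89% of the reads with chrysin and 2.79% to 3.04% in the other 6 libraries. Library 1 of high glucose differed from its replicates 2 and 3, with a chi-square per gene of 7.56 and 8.65 over genes with more than 1000 reads in the pair, against 2.14 to 2.94 in the other replicate pairs. The member fold changes, the calls and the list counts were also computed without it. All fold changes were computed as log2(FPKM + 0.5), so that changes of low genes are understated. A gene is said to rise or fall where the Benjamini-Hochberg adjusted p from limma, over 16996 genes tested, was under 0.05. Since nothing in the labels says that the replicates were separate cultures, the p-values cover only the spread between libraries, which may be technical. For a single gene, the smallest p that an exact permutation test of 3 against 3 libraries allows is 0.1.

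The labels call AC16 a cardiomyocyte line, and the defining markers of a contracting cardiomyocyte were near 0 in all 3 groups. All 12 such markers (TNNT2, TNNI3, MYH6, MYH7, MYL2, MYL7, ACTN2, MYBPC3, RYR2, PLN, NPPA and NKX2-5) had a group mean under 0.5 FPKM in every group, and MYL2, MYBPC3, PLN and NKX2-5 were at 0 in every library. Their summed level was 0.687 to 1.47 FPKM with chrysin, 0.873 to 1.04 FPKM in high glucose and 0.701 to 0.952 FPKM in low glucose. PLN encodes phospholamban, the inhibitor of SERCA2, and it was at 0 beside an abundant ATP2A2. NPPA, the atrial sister of NPPB, had 1 to 4 reads per library in high glucose and at most 2 in the others. Of the 10 genes themselves, 9 were above the minimum for testing (a mean of 0.5 FPKM in at least 1 group) and MEF2C was not.

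**Figure D1:**
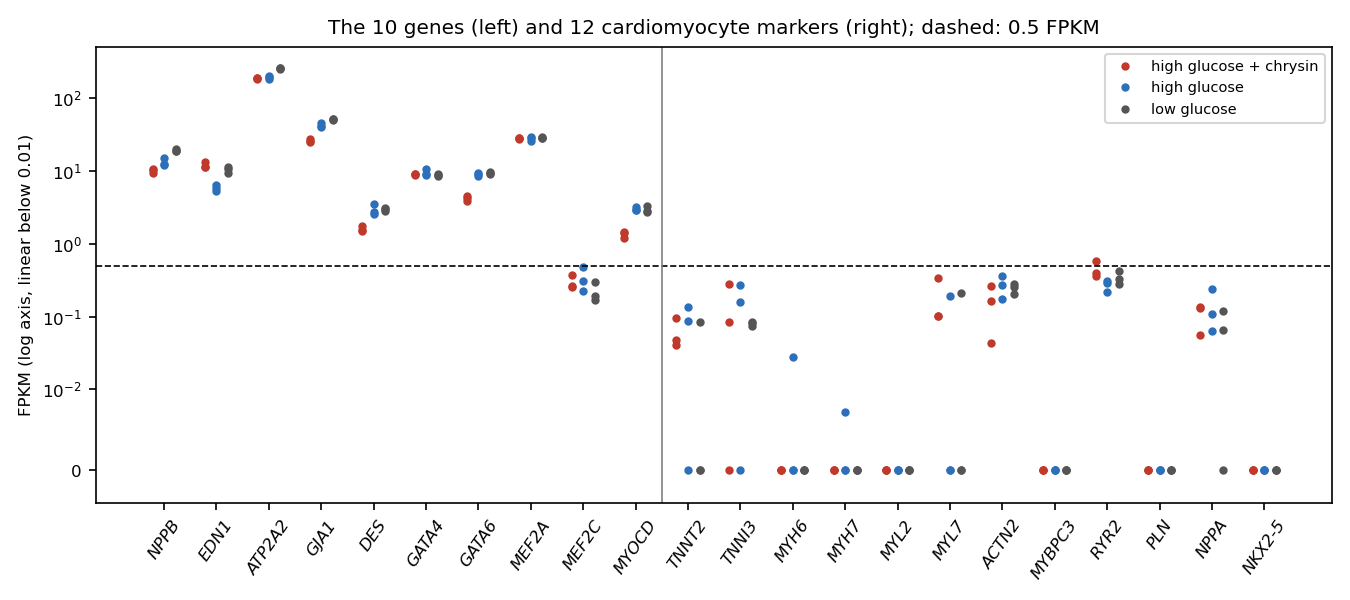
FPKM of the 10 genes (left of the line) and of 12 cardiomyocyte markers (right) in each of the 9 libraries, on a log axis that is linear below 0.01; red points are high glucose with chrysin, blue high glucose, grey low glucose, and the dashed line is at 0.5 FPKM. Of the markers, RYR2 alone passes the line, in 1 chrysin library at 0.587 FPKM, while MEF2C alone among the 10 genes lies below it in every library.

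The plot of the genes beside the markers shows how wide the range among them was. Averaged over the 9 libraries, ATP2A2 stood at 209.8 FPKM, GJA1 at 39.8, MEF2A at 28.2, NPPB at 14.1, EDN1 at 9.34, GATA4 at 9.04, GATA6 at 7.45, DES at 2.50, MYOCD at 2.42 and MEF2C at 0.284 FPKM. ATP2A2 was higher than 96.8% of the genes tested. In high glucose the libraries of GATA4 and GATA6 overlapped, as did those of MYOCD and DES. In low glucose EDN1 overlapped GATA6, and DES overlapped MYOCD. With chrysin no neighbours in the order overlapped.

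RefSeq promoter windows (GRCh38.p14) were matched for 6 of the 10 genes: ATP2A2, GJA1, EDN1, GATA6, MEF2A and MEF2C. The other 4 were NPPB, DES, GATA4 and MYOCD. The sequences chosen for print are all on the plus strand and 5′ to 3′. They include the windows of a gene that fell in high glucose (ATP2A2) and of a gene that passed the test in no comparison (MEF2A). GJA1 was the gene among these 6 that fell both in high glucose and with chrysin relative to high glucose. GATA6 was the gene with the lowest log2 fold change with chrysin relative to high glucose. Each line holds the bases that lie before both the RefSeq start and the GENCODE 29 gene start: chr12:110280366-110280615 for ATP2A2, chr6:121435396-121435576 for GJA1, chr18:22169339-22169442 for GATA6 and chr15:99565167-99565416 for MEF2A. The GJA1 site line, chr6:121435587-121435615, begins after the GENCODE start. Capitals mark the AP-1 element TGANTCA in GJA1 and the overlapping matches to the MEF2 consensus in ATP2A2.
ATP2A2: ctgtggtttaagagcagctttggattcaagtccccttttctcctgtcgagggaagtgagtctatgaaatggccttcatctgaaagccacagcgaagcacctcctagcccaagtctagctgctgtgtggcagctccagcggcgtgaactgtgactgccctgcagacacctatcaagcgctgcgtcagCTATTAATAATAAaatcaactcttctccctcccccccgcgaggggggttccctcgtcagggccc
GJA1: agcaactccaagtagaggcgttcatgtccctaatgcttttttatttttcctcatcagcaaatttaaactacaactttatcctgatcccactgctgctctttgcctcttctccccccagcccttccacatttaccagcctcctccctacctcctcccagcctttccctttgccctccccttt
GJA1 site: ctcctcccagtTGAGTCAgtggcttgaaa
GATA6: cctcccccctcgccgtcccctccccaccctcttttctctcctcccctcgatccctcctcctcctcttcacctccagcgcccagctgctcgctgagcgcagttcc
MEF2A: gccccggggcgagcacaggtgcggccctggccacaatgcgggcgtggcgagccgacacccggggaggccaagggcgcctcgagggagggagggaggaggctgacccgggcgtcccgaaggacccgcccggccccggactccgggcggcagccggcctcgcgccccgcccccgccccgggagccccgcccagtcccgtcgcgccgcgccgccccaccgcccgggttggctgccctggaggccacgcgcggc
The windows were searched on both strands over the 250 bases before the RefSeq start for the GATA elements AGATAA and TGATAA, the M-CAT element CATTCC, the AP-1 element TGANTCA, the MEF2 element CTANNNNTAG, the CArG box bound by SRF, the ER stress element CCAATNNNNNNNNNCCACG and the ATF4 element TGATGNAA. The degenerate MEF2 consensus, which allows more letters at the ends and only A or T in the middle, was added after the sequences had been seen. The EDN1 window ended 2344 bases before the GENCODE start of EDN1, and the ATP2A2 window ended 140 bases before that of ATP2A2. The MEF2C window, chr5:88883185-88883434, lay inside the GENCODE gene. For these genes the bases next to the GENCODE start were therefore not searched. In the 6 windows there were matches in ATP2A2 and GJA1. ATP2A2 held the MEF2 consensus at 2 overlapping places, 64 and 61 bases before the RefSeq start, each read on both strands. GJA1 held the AP-1 element 48 bases before the RefSeq start, and since TGANTCA reads the same on both strands it was found on each. Of 35116 promoters of the same length, 6.57% hold TGANTCA, 9.17% AGATAA, 6.66% TGATAA, 11.9% CATTCC, 2.36% CTANNNNTAG, 2.8% the MEF2 consensus, 1.16% the CArG box, 3.14% the ATF4 element and 0.074% the ER stress element. A match is a run of letters, not a measured site, and no match says only that these letters are not in this window.

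With chrysin added to high glucose, NPPB, GJA1, DES, GATA6 and MYOCD fell and EDN1 rose. ATP2A2, GATA4 and MEF2A did not pass the test. Of the 9 genes tested, 5 fell and 1 rose, beside 20.9% and 24.9% of all genes tested, so that 45.8% of all genes were called in this comparison. The chrysin and high glucose libraries did not overlap for 6 of the 10 genes, against 54.3% of the genes tested. The median log2 fold change was -0.37 over the 9 genes and 0.03 over all genes tested. High glucose alone, set against low glucose, showed lower NPPB, EDN1, ATP2A2 and GJA1 and left DES, GATA4, GATA6, MEF2A and MYOCD without a call. There 4 of 9 fell, beside 8.91% of all genes, and 0 of 9 rose, beside 14.6% (23.5% called in all). No gene of the 9 was higher at an unadjusted p under 0.05 or by limma voom either, which gave 0 in both cases. The libraries did not overlap for 4 of the 10 genes, against 37.9% of all genes tested, and the medians were -0.07 and 0.02. The 2 comparisons share the high glucose libraries. The 10 genes were chosen with earlier results of these data known, so their counts and medians beside all genes are a description. In bulk RNA, fewer cells of a type and less RNA per cell cannot be told apart.

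**Figure D2:**
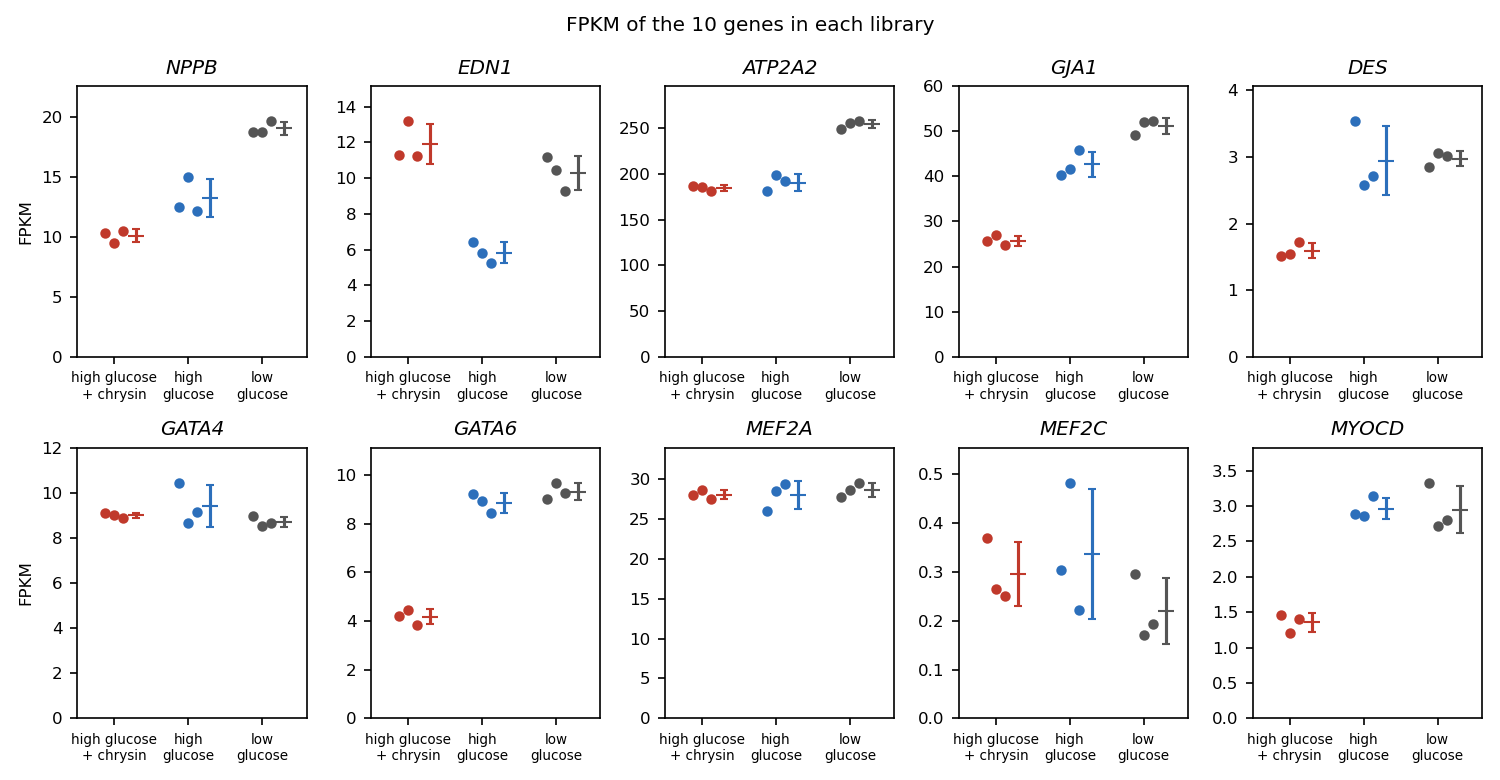
FPKM of each of the 10 genes in every library (points) with the mean and SD of the 3 libraries of a group (bars beside the points); groups run from high glucose with chrysin (red) to high glucose (blue) and low glucose (grey), and each panel has its own axis from 0. GATA6 with chrysin lies between 3.84 and 4.46 FPKM, below all 6 other libraries, whereas the GATA4 libraries of the 3 groups overlap.

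NPPB (chromosome 1, 11857464 to 11858931, minus strand, GRCh38) had 10.3, 9.45 and 10.4 FPKM in libraries 1 to 3 of high glucose with chrysin, 12.5, 15.0 and 12.1 FPKM in high glucose, and 18.7, 18.7 and 19.6 FPKM in low glucose. The 3 groups did not overlap, chrysin being the lowest and low glucose the highest. NPPB fell with chrysin relative to high glucose (log2 fold change -0.37, SE 0.08, adjusted p 0.0028) and was lower in high glucose than in low glucose (-0.52, adjusted p 0.00099). These levels rest on 125 to 277 reads per library.

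EDN1 (chromosome 6, 12290363 to 12297194, plus strand), the other secreted peptide gene, had 11.3, 13.2 and 11.2 FPKM with chrysin, 6.45, 5.80 and 5.25 FPKM in high glucose, and 11.2, 10.5 and 9.27 FPKM in low glucose. The high glucose libraries were all below those of the other 2 groups. EDN1 rose with chrysin relative to high glucose (log2 fold change 0.97, SE 0.10, adjusted p 1.6e-05), the single rise among the 9 genes, and was lower in high glucose than in low glucose (-0.77, adjusted p 0.0003). With chrysin, EDN1 did not pass the test against low glucose: the difference was 0.20 with a 95% interval of -0.01 to 0.41 (adjusted p 0.11), although the libraries of these groups did not overlap. NPPB and EDN1 thus moved the same way with high glucose and opposite ways with chrysin.

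The partner genes of these peptides, a list of 25 natriuretic, endothelin, adrenomedullin and angiotensin genes of which 12 were tested, split. For this list and those below, the counts stand beside the shares of all genes tested. The lists too were chosen with earlier results of these data known, so their counts and medians are a description. With chrysin 24.9% of all genes rose and 20.9% fell, and in high glucose against low glucose 14.6% rose and 8.91% fell. In the peptide list 4 rose and 3 fell with chrysin. NPR3, the receptor that clears natriuretic peptides, averaged 6.15 ± 0.43 FPKM with chrysin and 3.87 ± 0.30 FPKM in high glucose (SD, n = 3 each), a log2 fold change of 0.61 (adjusted p 0.00019). AGTR1, the angiotensin II receptor (0.34), and FURIN, a protease that cuts peptide precursors (0.20), also rose, and MME, the protease neprilysin, which degrades these peptides, fell (-0.17). In high glucose against low glucose 4 fell and 2 rose: ADM (-0.32) and ADM2 (-0.71), which encode the vasodilator peptides adrenomedullin and intermedin, fell together with MME (-0.28), while FURIN rose (0.35). The count of 2 rises became 1 when any library except high glucose 1 was left out. Leaving out 1 library also lowered the counts over all genes. With chrysin 4234 rises became 3659 to 4175 and 3558 falls became 3153 to 3485. In high against low glucose 2488 rises became 1855 to 2353 and 1514 falls became 1116 to 1458. List counts without 1 library, here and below, stand beside these ranges.

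ATP2A2 (chromosome 12, 110280756 to 110351093, plus strand) was the most abundant of the genes. It had 187, 186 and 181 FPKM with chrysin, 181, 198 and 193 FPKM in high glucose, and 249.5, 256 and 258 FPKM in low glucose. The chrysin and high glucose libraries overlapped and both groups lay below low glucose. High glucose was lower than low glucose by a log2 fold change of -0.42 (SE 0.03, adjusted p 2.2e-05). Chrysin against high glucose gave -0.05 with a 95% interval of -0.12 to 0.03 (adjusted p 0.3), and the same difference was called at -0.08 without high glucose library 1 (adjusted p 0.026) and at -0.08 by limma voom on recovered reads (adjusted p 0.035). Gene-level FPKM does not separate the cardiac SERCA2a transcript from the widely expressed SERCA2b.

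Other genes of the internal calcium store moved both ways in both comparisons. Of 16 tested among 28 listed, 6 rose and 3 fell with chrysin, with a median of 0.08 against 0.03 over all genes tested. ATP2A1, the SERCA1 pump of fast skeletal muscle, averaged 6.39 ± 0.05 FPKM with chrysin and 1.73 ± 0.49 FPKM in high glucose (SD, n = 3 each), a log2 fold change of 1.65 (adjusted p 1.8e-05). TMEM38A, a potassium channel of the store, rose by 1.03, and the chaperone calnexin (CANX) and the Golgi calcium pump ATP2C1 each rose by 0.29. In high glucose against low glucose, where 8.91% of all genes fell and 14.6% rose, 4 of the 16 fell and 3 rose. CALR, the calcium-binding chaperone calreticulin, averaged 1923 FPKM in high glucose and 2759.7 FPKM in low glucose (-0.52, adjusted p 2.2e-07), CANX fell by 0.39 and the store sensor STIM1 fell by 0.23, while TMEM38A rose by 0.71. The 3 rises became 1 without high glucose library 1 or low glucose library 1.

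At the plasma membrane, 3 calcium genes rose and 5 fell with chrysin among 13 tested of 21 listed. The calcium pump ATP2B4 (-0.60) and the sodium-calcium exchanger SLC8A1 (-0.48) fell, and the cation channels TRPC6 (1.14) and TRPM7 (0.32) rose. The 5 falls became 2 without chrysin library 1 or 2 or without high glucose library 2 or 3, and 3 without low glucose library 1. With high glucose, 4 rose and 3 fell: the pump ATP2B1 fell (-0.42), and ATP2B4 (0.25), the channel subunit CACNB3 (0.37) and the store-operated channel ORAI2 (0.21) rose. The 3 falls became 1 without high glucose library 1 or 2 or low glucose library 1 or 3.

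GJA1 (chromosome 6, 121435577 to 121449727, plus strand), whose promoter window holds the AP-1 letters printed above, had 25.6, 26.9 and 24.7 FPKM with chrysin, 40.4, 41.7 and 45.8 FPKM in high glucose, and 49.1, 52.1 and 52.2 FPKM in low glucose. No 2 groups overlapped. GJA1 fell with chrysin relative to high glucose (-0.72, SE 0.05, adjusted p 2.1e-06) and was also lower in high glucose than in low glucose (-0.26, SE 0.05, adjusted p 0.0052). The mean with chrysin fell by 39.6% relative to high glucose and fell by 49.7% relative to low glucose.

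Partners of connexin 43 at the intercalated disc, the junction between heart cells, moved both ways. With chrysin 4 of 15 tested genes (21 listed) rose and 5 fell, and 8 or 9 fell under median-of-ratios scaling or by voom. TJP1, the scaffold ZO-1 that binds connexin 43, fell (-0.43), as did the catenins CTNNA1 (-0.29) and CTNNB1 (-0.19) and TMEM65 (-0.43), a membrane protein of the disc. In high glucose 4 rose and 6 fell against low glucose. PKP2, the desmosomal protein plakophilin 2, averaged 7.71 ± 0.54 FPKM in high glucose and 13.3 ± 0.73 FPKM in low glucose (SD, n = 3 each; -0.76, adjusted p 7.6e-05), PKP4 (-0.26) and LMO7 (-0.23) fell and CTNNA1 rose (0.12). The 4 rises became 1 without high glucose library 2 or 3 or low glucose library 1, and 2 without the other libraries of those groups or chrysin library 2 or 3. The 6 falls became 3 without chrysin library 1, high glucose library 1 or 3, or low glucose library 2 or 3.

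DES (chromosome 2, 219418377 to 219426739, plus strand) was low throughout, with 29 to 75 reads per library. It had 1.52, 1.54 and 1.73 FPKM with chrysin, 3.53, 2.58 and 2.71 FPKM in high glucose, and 2.85, 3.06 and 3.02 FPKM in low glucose. The chrysin libraries lay below the other 6, which overlapped. DES fell with chrysin relative to high glucose (-0.71, SE 0.12, adjusted p 0.0008), and high glucose against low glucose gave -0.02 with a 95% interval of -0.30 to 0.25 (adjusted p 0.92). The antisense gene AC053503.4 shares 104 exon bases with DES and had 0 to 10 reads per library. Whether strand was used in counting is not given, so reads of the shared bases cannot be assigned between them.

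All 16 listed intermediate filament and lamin genes and desmin partners were tested, and with chrysin 9 fell and 3 rose, at a median of -0.17. The epithelial keratins KRT18 (-0.58) and KRT8 (-0.39), the nuclear lamin LMNB1 (-0.47) and the small heat shock protein HSPB1 (-0.40) fell. With high glucose 6 rose and 0 fell relative to low glucose, LMNB1 (0.33), LMNA (0.24), KRT18 (0.18) and the linker PLEC (0.20) among those that rose. Voom and an unadjusted p under 0.05 gave 2 falls there, and 1 fall appeared without high glucose library 1 or 3.

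GATA6 (chromosome 18, 22169443 to 22202528, plus strand) had 4.20, 4.46 and 3.84 FPKM with chrysin, 9.24, 8.92 and 8.42 FPKM in high glucose, and 9.02, 9.68 and 9.26 FPKM in low glucose. The chrysin libraries were below all others, and the other 2 groups overlapped. GATA6 fell with chrysin relative to high glucose (-1.0, SE 0.07, adjusted p 2e-06), while high glucose against low glucose gave -0.07 with an interval of -0.23 to 0.09 (adjusted p 0.55). Its antisense neighbour GATA6-AS1 shares 240 exon bases with it and had 12 to 37 reads per library, against 219 to 584 for GATA6. A further antisense gene, AC091588.3, shares 321 exon bases with GATA6 and had 0 to 5 reads per library. The sources used here do not say whether strand was used in counting, so reads of the shared bases cannot be assigned between them.

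GATA4 (chromosome 8, 11676959 to 11760002, plus strand), the related factor that acts with GATA6 in heart development, was nearly level. It had 9.11, 9.0 and 8.89 FPKM with chrysin, 10.4, 8.65 and 9.13 FPKM in high glucose, and 8.95, 8.50 and 8.67 FPKM in low glucose. All 3 groups overlapped. Chrysin against high glucose gave -0.06 with an interval of -0.21 to 0.10 (adjusted p 0.55), whereas the interval of GATA6 was -1.17 to -0.84. In high glucose the 2 GATA genes had overlapping levels, and in low glucose every GATA6 library lay slightly above every GATA4 library. With chrysin every GATA6 library lay below every GATA4 library.

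MYOCD (chromosome 17, 12665890 to 12768949, plus strand) had 1.46, 1.21 and 1.40 FPKM with chrysin, 2.89, 2.86 and 3.14 FPKM in high glucose, and 3.33, 2.71 and 2.81 FPKM in low glucose. The chrysin libraries were the lowest 3 and the other groups overlapped. MYOCD fell with chrysin relative to high glucose (-0.90, SE 0.11, adjusted p 8.8e-05), and high glucose against low glucose gave 0.01 (adjusted p 0.97). It rests on 81 to 249 reads per library. The antisense gene AC005358.2 overlaps 704 of its exon bases, and no level of that gene was found here. Reads of the shared bases cannot be assigned between them, since strand use in counting is not given.

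MEF2A (chromosome 15, 99565417 to 99716466, plus strand), a MADS-box factor, had 27.9, 28.6 and 27.5 FPKM with chrysin, 26.0, 28.6 and 29.4 FPKM in high glucose, and 27.8, 28.6 and 29.5 FPKM in low glucose. The groups overlapped in every comparison, and chrysin against high glucose gave 0.00 with an interval of -0.11 to 0.11 (adjusted p 0.96). LYSMD4 on the other strand shares 770 exon bases with MEF2A and stood at 4.47, 4.98 and 5.02 FPKM on average in the 3 groups in the same order. MEF2C (chromosome 5, 88717117 to 88904257, minus strand), its relative in heart development, had 0.370, 0.264 and 0.251 FPKM with chrysin, 0.304, 0.482 and 0.222 FPKM in high glucose, and 0.296, 0.170 and 0.194 FPKM in low glucose. With 5 to 18 reads per library MEF2C was below the minimum for testing, and no difference was detectable at this depth.

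**Figure D3:**
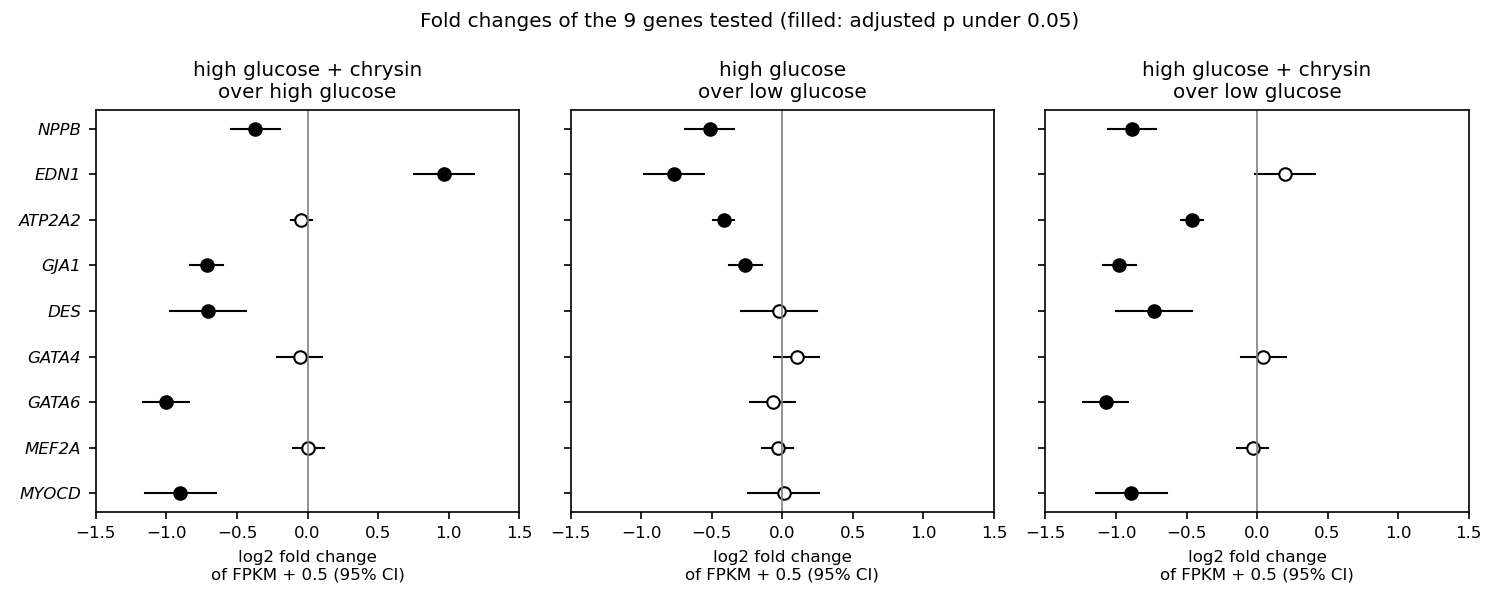
Log2 fold changes of the 9 genes tested, on the log2(FPKM + 0.5) scale, with 95% intervals as bars, for high glucose with chrysin over high glucose, high glucose over low glucose, and high glucose with chrysin over low glucose; filled points passed an adjusted p of 0.05 in limma. EDN1 is at 0.97 in the first panel and -0.77 in the second, and GATA6, MYOCD and DES are near 0 in the second panel and well below 0 in the others.

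The plot of fold changes sets the 3 comparisons side by side. Against low glucose, high glucose with chrysin was lower in 6 of the 9 genes and higher in 0, while 21.3% and 29.7% of all genes tested were lower and higher (51.0% in all). Neither an unadjusted p under 0.05 nor voom gave a higher gene, 0 in both cases. NPPB (-0.89, adjusted p 4.9e-06), ATP2A2 (-0.46, adjusted p 1.4e-06), GJA1 (-0.98, adjusted p 1.7e-07), DES (-0.73, adjusted p 0.00052), GATA6 (-1.07, adjusted p 8.5e-07) and MYOCD (-0.89, adjusted p 7.4e-05) were lower. The libraries did not overlap for 7 of the 10 genes, EDN1 included, against 60.0% of the genes tested. GATA4 (0.05) and MEF2A (-0.03) did not pass the test.

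The genes around these regulators were counted in the same way. Of 12 tested among 23 listed cardiac transcription genes, 3 rose and 3 fell with chrysin. SRF, the DNA-binding partner of myocardin, rose (21.5 ± 1.3 FPKM with chrysin, 15.4 ± 0.60 FPKM in high glucose, SD, n = 3 each; log2 fold change 0.47), as did TEAD1 (0.36), which binds M-CAT elements. TBX3 (-0.44), a T-box factor, and MEIS1 (-0.46), a homeobox factor, fell. In high glucose SRF was lower than in low glucose (-0.27), the single fall, and MEIS1 (0.22) and MRTFB (0.21), a myocardin relative, rose. The 2 rises did not hold: each of the 2 genes lost its call in 11 of 17 alternatives, and without high glucose library 2, low glucose library 1 or 3, or chrysin library 3 there were 0. The single fall became 2 without high glucose library 2.

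Among signalling genes that act on MEF2 and NFAT factors, 9 of 20 tested (22 listed) fell with chrysin and 2 rose. HDAC5, a deacetylase that represses MEF2, averaged 14.0 ± 0.69 FPKM with chrysin and 26.2 ± 1.9 FPKM in high glucose (SD, n = 3 each), a log2 fold change of -0.88 (adjusted p 1e-06). NFATC4 (-0.72) and PPP3CA, the calcineurin catalytic subunit (-0.28), fell, and CAMK2D, the main cardiac CaM kinase, rose (0.42). In high glucose against low glucose 4 rose and 3 fell: RCAN1, an inhibitor of calcineurin (-0.42), HDAC9 (-0.51) and CAMK2D (-0.32) fell, and NFATC4 rose (0.31).

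Of 22 sarcomere genes 5 were tested, and 3 rose with chrysin and 0 fell, and voom and an unadjusted p under 0.05 also gave 0 falls. ACTC1 and MYL3 reached the 0.5 FPKM minimum with chrysin only (MYL3 at 0.519 FPKM, 0.384 in high glucose, 0.367 in low glucose). TCAP reached it with chrysin and in high glucose but not in low glucose. The filter thus favours rises in this list, and its counts and median are a description. ACTC1, cardiac actin, averaged 4.83 ± 0.58 FPKM with chrysin and 0.389 ± 0.058 FPKM in high glucose (SD, n = 3 each), a log2 fold change of 2.58 (adjusted p 7.7e-07). TPM1 (0.22) and MYPN (0.30), which encode a tropomyosin and a Z-disc protein, rose less. In high glucose TPM1 fell (-0.16) while MYPN (0.17) and TCAP (0.87, at 0.616 FPKM in high glucose and 0.0908 in low glucose) rose. The 2 rises became 0 without high glucose library 2 and 1 without any low glucose library. Actins, tropomyosins and keratins have near-identical copies, and the sources used here do not say how shared reads were counted.

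**Figure D4:**
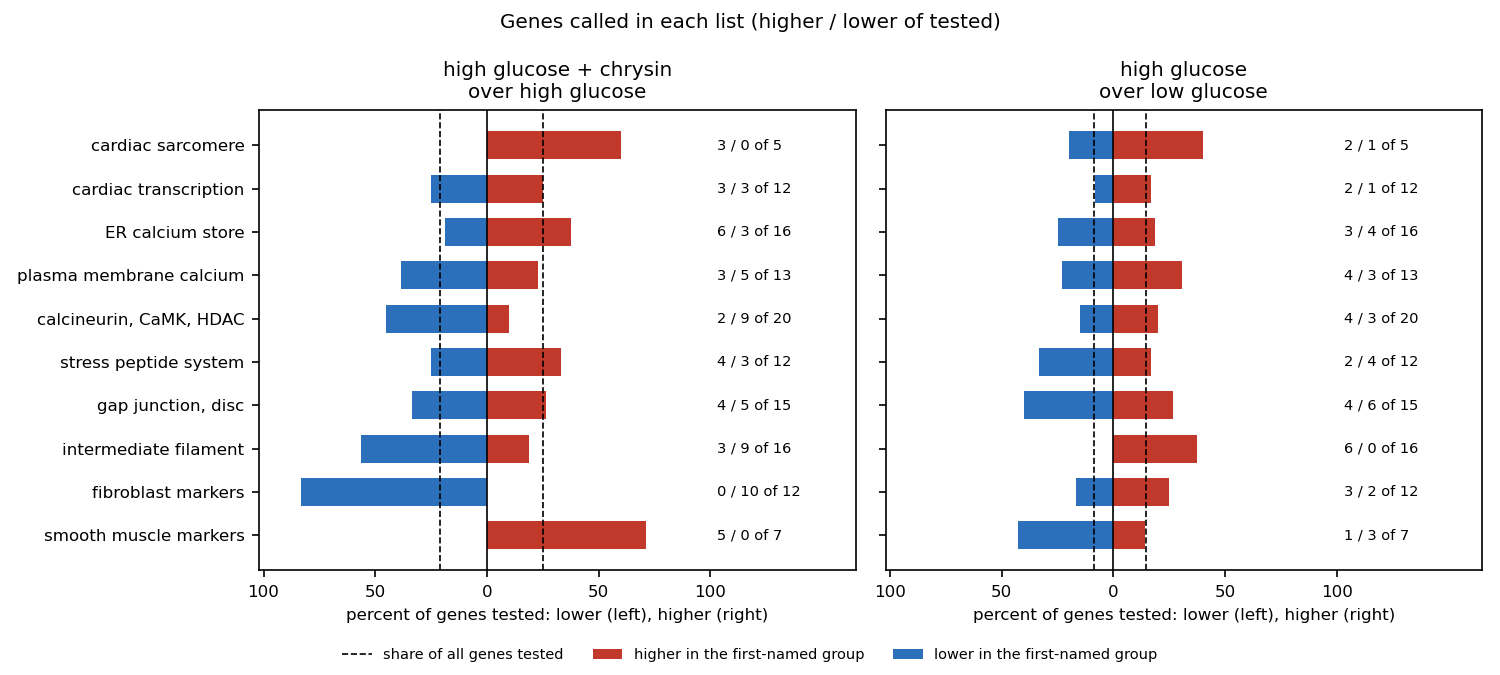
Percent of the tested genes of each list that rose (red, right) or fell (blue, left) for high glucose with chrysin over high glucose and high glucose over low glucose; numbers are rises, falls and genes tested, and dashed lines are the shares over all genes tested (24.9% and 20.9%, then 14.6% and 8.91%). The fibroblast markers have 10 falls of 12 with chrysin and the smooth muscle markers 5 rises of 7.

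Over the 8 lists together, shown with the marker lists in the plot of list counts, 109 of 178 genes were tested. With chrysin 28 rose (25.7%) and 37 fell (33.9%), beside 24.9% and 20.9% of all genes tested. The median log2 fold change with chrysin was 0.30 in the sarcomere list, 0.08 in the calcium store list, -0.01 in the stress peptide list, -0.05 in the transcription list, -0.09 in the intercalated disc list, -0.10 in the calcineurin list and -0.17 in the plasma membrane and filament lists, beside 0.03 over all genes tested. In high glucose against low glucose the list medians lay between -0.07 and 0.11, beside 0.02. In high glucose 27 rose (24.8%) and 22 fell (20.2%), beside 14.6% and 8.91% of all genes tested. The 27 rises became 14, 16 and 17 without high glucose library 2, low glucose library 1 and low glucose library 3. Over all genes, the 2488 rises became 1855 to 2353 when 1 library was left out.

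Markers of other cell types moved with chrysin as well. All 12 fibroblast markers were tested, and 10 fell and 0 rose relative to high glucose, with a summed level of 6433 to 6598 FPKM with chrysin, 9206 to 9666 FPKM in high glucose and 7810 to 8111 FPKM in low glucose. FAP (-1.46), LUM (-1.44), COL1A2 (-0.76) and COL1A1 (-0.82) were those with the smallest p. COL1A1 and VIM held most of the summed level. COL1A1 averaged 2899 FPKM with chrysin, 5138 FPKM in high glucose and 3707 FPKM in low glucose. VIM averaged 2552, 2670 and 2764 FPKM in the same order. The median log2 fold change of the list was -0.75 with chrysin and -0.0009 in high against low glucose. Of 7 smooth muscle markers tested (8 listed) 5 rose with chrysin, among them ACTA2 (1.72), TAGLN (0.72), LMOD1 (0.80) and TPM2 (0.15), and 0 fell; the summed level was 1183 to 1210 FPKM with chrysin, 991 to 1036 FPKM in high glucose and 981 to 1015 FPKM in low glucose. For the 0 rises of fibroblast markers and 0 falls of smooth muscle markers, voom and an unadjusted p under 0.05 gave 0 as well. High glucose against low glucose gave 3 rises (COL1A1 0.47, THY1 0.35, COL1A2 0.27) and 2 falls (FAP at -0.25 among them) of fibroblast markers. Voom gave 4 falls there. Of smooth muscle markers SMTN rose (0.37), and MYLK (-0.24), TAGLN (-0.16) and CNN1 (-0.17) fell; without high glucose library 2 there were 2 rises and 1 fall.

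Endothelial markers were low, with 2 of 8 tested and a summed level of 2.29 to 2.72 FPKM with chrysin, 4.73 to 4.86 FPKM in high glucose and 4.77 to 5.41 FPKM in low glucose. TIE1 (-0.80) and TEK (-0.45) fell with chrysin, and TEK lost its call in 11 of 16 alternatives, including 8 of the 9 left-out libraries. Macrophage markers summed to 2.91 to 3.33 FPKM with chrysin, 5.24 to 5.64 FPKM in high glucose and 3.33 to 3.63 FPKM in low glucose, where CD14 fell with chrysin (-0.85) and rose in high glucose (0.70). The part of any of these markers, or of the mitochondrial share, in the changes of the 10 genes was not tested.

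For each gene that changed, the genes whose log2 profile over the 9 libraries was most alike were looked up among 9862 or 9863 genes, by the root mean square difference of the centred values. NPPB was closest to ETS2 (0.07), PXK (0.08) and WARS1 (0.09). ATP2A2 was closest to GPNMB (0.02), SLC7A1 (0.03) and GARS1 (0.03). GJA1 was closest to XPOT, ENPP2 and SLC38A2 (0.05 each). These nearest genes repeat the member's order of groups: SLC38A2, an amino acid transporter, averaged 219 FPKM with chrysin, 348 FPKM in high glucose and 418 FPKM in low glucose. EDN1 was closest to DUSP1 (0.08), a phosphatase of MAP kinases at 48.4 FPKM with chrysin, 23.5 FPKM in high glucose and 39.1 FPKM in low glucose, and further from CD274 and SLC20A2 (0.15 each). DES was closest to LRRC49 (0.07), LGALS3 (0.08) and IRX3 (0.08). GATA6 was closest to PMF1 (0.05), ABLIM3 (0.06) and HNRNPA1 (0.06), and MYOCD to ST6GAL1 (0.07), DUSP6 (0.08) and MPP4 (0.08). The libraries of a group shape all these profiles, so likeness here is a description of 3 group means and their scatter.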

How the data were processed

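Polyadenylated RNA of AC16 cells was measured in 9 libraries, grouped by their treatment labels. The table the authors deposited holds FPKM, a unit read from its values. Tools named in the submitters' processing notes, with no role given, are HTSeq 0.13.5, StringTie 2.2.1, HISAT2 2.2.1 and fastp 0.23.4, with hg38 as the build. Each gene's values shared a common step worth 1 read, so whole reads were recovered for 28230 of 28230 rows above 0 in 2 or more libraries (100% whole, within 4.59e-05 reads), giving 18171842 to 23024300 reads per library. Of all rows, 1094 carried a repeated name.

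The test was limma 3.58.1 (R 4.3.3) on log2(FPKM + 0.5) with the variance trend option, 1 fit over all 9 libraries without a block, for genes whose mean reached 0.5 FPKM in 1 group or more. Contrasts were two-sided, adjusted over all 16996 genes. The design's branch for deposited counts was not used. The script was checked on simulated data. Named were the 10 genes, the 3 most alike genes of each called one, and genes that share exon bases with 1 of the 10. Cardiomyocyte markers were named too, and per list up to 4 called genes with the smallest adjusted p per high glucose comparison. Genes and lists were chosen with earlier results of these data known. Positions came from GENCODE 29. Alternatives were pseudocounts of 0.1 and 1, no filter, 5 FPKM, median-of-ratios scaling, voom with TMM on recovered reads, a replicate block, only the groups compared, and leaving out each library.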

Additional observations from a re-analysis of the deposited data

How the results depend on the processing

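Of 453 values of the 27 gene comparisons under 17 alternatives, 436 kept their direction and their side of the threshold, and no called gene among the 10 lost its call. With a mean of at least 5 FPKM, 3 genes fell with chrysin relative to high glucose in place of 5, since DES and MYOCD were not tested. ATP2A2 gained a call for chrysin against high glucose, at -0.079 by voom (adjusted p 0.035) and at -0.083 without high glucose library 1 (adjusted p 0.026; -0.083 to -0.016 over the left-out libraries). Values near 0 changed sign. For chrysin against high glucose, MEF2A was -0.024 with median-of-ratios scaling, -0.028 by voom and -0.047 to 0.040 leaving out 1 library, and GATA4 was -0.11 to 0.017 leaving out 1 library. For high against low glucose, MYOCD was -0.016 with median-of-ratios scaling, -0.031 by voom and -0.040 to 0.086 leaving out 1 library, DES was -0.14 to 0.051 and MEF2A was -0.070 to 0.017 leaving out 1 library. For chrysin against low glucose, GATA4 was -0.0094 with median-of-ratios scaling and -0.017 by voom. The cause was not tested. Scaling moved the median of all genes by less than 0.1.

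Leaving out 1 library at a time, 5 to 6, 4 to 4 and 6 to 6 of the genes fell in chrysin against high glucose, high against low glucose and chrysin against low glucose. The 8 lists gave 14 to 24 rises in high against low glucose, and all genes gave 1855 to 2353. Of 1326 list counts, 105 moved by over 1.5 times. Deviations of same-numbered libraries from their group means had correlations of -0.0153 to 0.008 over all genes tested. Every gene counted alike, low genes included, so whether the numbers pair the libraries cannot be told from these values. With the replicate number as a block, 4092 genes rose and 3454 fell with chrysin relative to high glucose, 2272 and 1421 in high against low glucose and 4893 and 3530 in chrysin against low glucose, and the block left 5, 4 and 6 falls among the 10 genes. A quasi-likelihood count test on recovered reads was planned and not run. Depth limits MEF2C (5 to 18 reads) and DES (29 to 75 reads).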
